A study of Mus musculus with 12 samples.

Results

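The genes described here encode the T-cell receptor complex and the proteins that act directly beside it. They are Cd3d, Cd3e, Cd3g and Cd247 (the signalling chains of the complex), Lck and Zap70 (its kinases), Cd4 and Cd8a (its coreceptors), and Cd5 and Thy1 (surface proteins of T cells). Their members were all probes on the arrays whose transcript accession belongs to one of these genes in the RefSeq table, 13 of 55681 probes and 10 of 20887 genes that any probe names. Of the 10 genes, 8 had a probe that 3 or more of the 12 arrays measured above background, and were tested. Cd247 and Cd8a did not and are described only by their signals.

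Plucked skin of 12 male mice gave the RNA, measured on 1 one-colour array per mouse, in a study of Sox4 in hair regrowth and the activation of hair follicle stem cells. Wild-type mice (WT) were set against mice whose Sox4 had been deleted conditionally in skin (cKO), and all were of a mixed background with 75% C57Bl6 and 25% 129Sv and were sampled 12 days after plucking. Each of 2 experiments held 3 WT and 3 cKO mice. Exp 1 held WT mice 1, 2 and 3 (72, 72 and 69 weeks old) and cKO mice 2, 5 and 6 (72, 72 and 68 weeks). Exp 2 held WT mice 4, 5 and 6 (20, 19 and 18 weeks) and cKO mice 1, 3 and 4 (17, 18 and 16 weeks). Age and experiment therefore cannot be told apart. The sources used here do not name the Cre driver of the deletion.

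The CD3 chains are membrane proteins that pair with the antigen-binding receptor chains and carry the motifs that Lck phosphorylates and Zap70 then binds. CD4 and CD8 bring Lck to the receptor, and CD5 damps its signal. In mouse skin the CD3 genes and Thy1 are known from T cells of the dermis and from the gamma delta T cells that live within the epidermis. Thy1 is also made by fibroblasts. In RNA from whole skin, fewer T cells and less RNA per T cell cannot be told apart.

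Cd3g, Cd3d and Cd3e lie next to each other on chromosome 9 of the mouse genome (GRCm38.p6), at chr9:44969572-44980431, chr9:44981769-44987052 and chr9:44998735-45009663. The transcript starts used for their promoter windows are 1355 bases apart for Cd3g and Cd3d, which point away from each other, and 27825 bases apart for Cd3d and Cd3e. Their levels went up and down together across the mice (r of 0.74 to 0.92), so these windows are shown, from RefSeq, 5′ to 3′ on the gene's own strand. They are the 250 bases before a transcript start, without any that lie inside the annotated gene: chr9:44980432-44980681 (minus strand) for Cd3g, chr9:44981536-44981768 (plus strand) for Cd3d and chr9:45009664-45009861 (minus strand) for Cd3e. Capitals mark 4 short motifs, searched on both strands: the Ets core AGGAAG, the Runx core TGTGGT, the HMG-box core ACAAAG that Sox and Tcf proteins share, and the E-box CANNTG. No motif overlaps another in these windows.
Cd3g: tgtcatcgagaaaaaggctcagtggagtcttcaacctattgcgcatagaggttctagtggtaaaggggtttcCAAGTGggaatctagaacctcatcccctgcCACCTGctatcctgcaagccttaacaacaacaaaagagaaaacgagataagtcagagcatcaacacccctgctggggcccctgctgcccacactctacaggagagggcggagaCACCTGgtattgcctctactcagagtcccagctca
Cd3d: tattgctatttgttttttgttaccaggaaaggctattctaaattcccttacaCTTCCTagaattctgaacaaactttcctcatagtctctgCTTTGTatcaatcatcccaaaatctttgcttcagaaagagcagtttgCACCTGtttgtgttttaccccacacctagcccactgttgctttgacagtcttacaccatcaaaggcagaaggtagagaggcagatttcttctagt
Cd3e: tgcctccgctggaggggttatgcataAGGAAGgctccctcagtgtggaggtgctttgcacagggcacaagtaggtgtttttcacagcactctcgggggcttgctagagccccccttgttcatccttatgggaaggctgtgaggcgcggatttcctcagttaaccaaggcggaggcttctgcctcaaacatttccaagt

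The 250 bases of Cd3g hold 3 E-boxes and none of the other motifs, the 233 of Cd3d 1 Ets core, 1 HMG-box core and 1 E-box, and the 198 of Cd3e 1 Ets core. Of 32851 promoter windows of 250 bases, 29.5% hold the Ets core, 14.0% the Runx core, 16.5% the HMG-box core and 66.2% the E-box. RefSeq windows were at hand for 8 of the 10 genes, 11 windows in all. Over their full 250 bases, with any that lie inside the gene, 8 hold the Ets core, 2 the Runx core, 3 the HMG-box core and 10 the E-box. The full Cd3e window thus holds 2 Ets cores and 1 E-box, more than the stretch shown. Some windows, such as that of Cd247, lie wholly inside the annotated gene. All these counts are matches of letters only. The other genes lie at chr1:165779952-165871153 (Cd247), chr1:36761798-36782821 (Zap70), chr4:129548344-129573641 (Lck), chr6:124864693-124888247 (Cd4), chr6:71373427-71379171 (Cd8a), chr19:10718107-10739026 (Cd5) and chr9:44043384-44048579 (Thy1).

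Arrays measured 53.9% to 62.6% of probes above background, and their 75th percentiles ran from 364 to 554 intensity units of processed signal, lowest in cKO mouse 5. Levels below are log2 signals minus that percentile of the same array. They compare mice for 1 probe and not probes with each other. The Sox4 level was -2.55 or less in every cKO mouse and 1.90 or more in every WT mouse (averaged difference -5.54, SE 0.12, limma adjusted p = 3.75e-09). WT mouse 5 is shown apart because its 8 skeletal muscle genes averaged -1.44, against 4.30 to 5.52 in the other mice of Exp 2. In Exp 1 that average ran from -4.93 to 0.24. Arrays were on 3 slides. Slide 1 held WT mice 2, 3 and 5 and cKO mice 1, 2 and 6, slide 2 WT mice 1, 4 and 6 and cKO mice 4 and 5, and slide 3 cKO mouse 3 alone.

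The CD3 chains were lowest in the cKO mice of Exp 2. The Cd3d probe (A_51_P285206) gave processed signals of 306, 206 and 278 in WT mice 1, 2 and 3 and 184, 207 and 100.3 in cKO mice 2, 5 and 6 of Exp 1. In Exp 2 it gave 197, 216 and 185 in WT mice 4, 5 and 6 and 112, 114 and 77.6 in cKO mice 1, 3 and 4. All 3 cKO mice of Exp 2 lay below every WT mouse of either experiment, while cKO mouse 5 of Exp 1 lay within the WT range. As levels, Cd3d averaged -0.89 ± 0.13 in WT of Exp 1, -1.34 ± 0.25 in WT of Exp 2, -1.41 ± 0.58 in cKO of Exp 1 and -2.36 ± 0.16 in cKO of Exp 2 (SD, n = 3 each). The middle groups of that order overlap.

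Cd3g (A_55_P2072771) had the same lowest group. Its signals were 305, 289 and 445 in WT mice 1, 2 and 3 and 183, 362 and 164 in cKO mice 2, 5 and 6. They were 234, 206 and 238 in WT mice 4, 5 and 6 and 99.99, 85.6 and 79.4 in cKO mice 1, 3 and 4. The 3 cKO mice of Exp 2 were close to each other and apart from all other mice, and cKO mouse 5 held the highest level of the 12 (-0.01). Group levels were -0.50 ± 0.23 in WT of Exp 1, -0.91 ± 0.78 in cKO of Exp 1, -1.16 ± 0.03 in WT of Exp 2 and -2.54 ± 0.10 in cKO of Exp 2 (SD, n = 3 each).

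Cd3e (A_55_P2156229) varied more within groups. Its signals were 1009.9, 745 and 887 in WT mice 1, 2 and 3, against 589, 911 and 370.1 in cKO mice 2, 5 and 6. In Exp 2 they were 819, 1097 and 721 in WT mice 4, 5 and 6, against 466.4, 644 and 502 in cKO mice 1, 3 and 4. After scaling, cKO mouse 5 (1.32) and WT mouse 5 (1.29) were the highest mice of all, and the groups overlapped in Exp 1 but not in Exp 2. Cd247, the zeta chain, stayed at background on all arrays, with signals of 5.23 to 21.2.

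**Figure D1:**
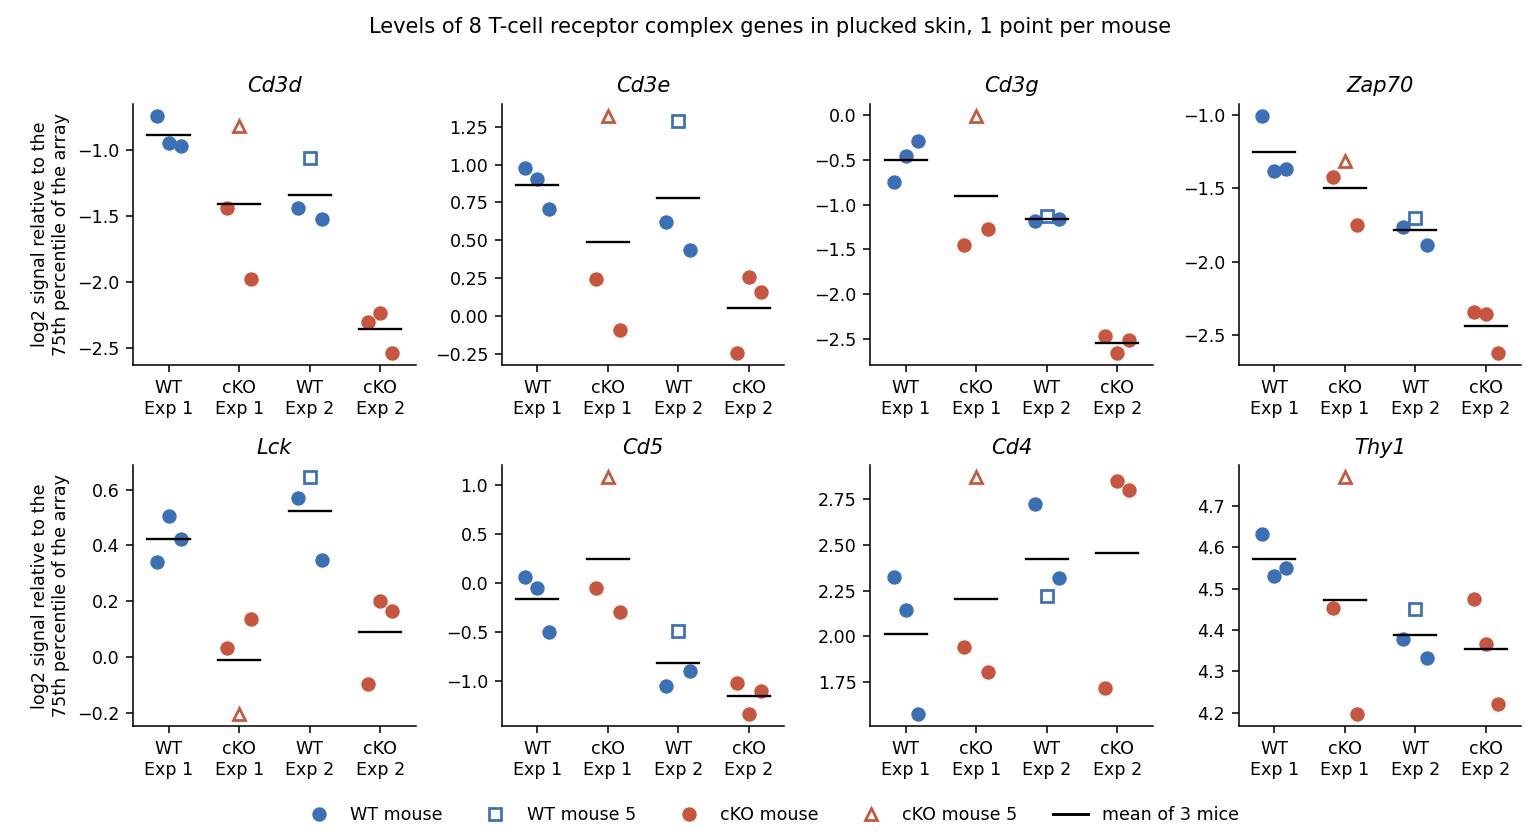
Level of the 8 tested genes in each mouse, as log2 signal relative to the array's 75th percentile (vertical axis, its range differing between panels), by genotype and experiment; bars are means of 3 mice, the open square is WT mouse 5 and the open triangle cKO mouse 5. Cd3d, Cd3g and Zap70 were lowest in the 3 cKO mice of Exp 2, Lck was lower in all 6 cKO mice than in any WT mouse, and cKO mouse 5 lay at the top for Cd3e, Cd3g, Cd5, Cd4 and Thy1.

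Of the kinases, Zap70 followed the CD3 chains and Lck did not. The brighter Zap70 probe (A_55_P1969861) gave 254, 152 and 211 in WT mice 1, 2 and 3 and 185, 146 and 118 in cKO mice 2, 5 and 6. In Exp 2 it gave 157, 138 and 144 in WT mice 4, 5 and 6 and 109, 106 and 73.3 in cKO mice 1, 3 and 4. Group levels were -1.25 ± 0.21 in WT and -1.50 ± 0.23 in cKO of Exp 1, and -1.78 ± 0.09 in WT and -2.44 ± 0.16 in cKO of Exp 2 (SD, n = 3 each). The cKO mice of Exp 2 were again below all others. The dimmer Zap70 probe (A_55_P2153122) gave group levels of -2.24 ± 0.29, -2.56 ± 0.51, -2.56 ± 0.10 and -3.25 ± 0.46 in the same order. There the groups of Exp 2 did not overlap either, but cKO mouse 6 of Exp 1 (-3.15) lay below cKO mouse 3 of Exp 2 (-2.75).

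Lck (A_55_P2155504), the kinase that acts first in the cascade, separated the genotypes in both experiments and hardly differed between them. Its signals were 648, 565 and 730.2 in WT mice 1, 2 and 3, against 509, 316 and 435 in cKO mice 2, 5 and 6. They were 792, 702 and 679 in WT mice 4, 5 and 6, against 517, 621 and 506 in cKO mice 1, 3 and 4. All 6 cKO levels (-0.21 to 0.20) were below all 6 WT levels (0.34 to 0.65). Of 16157 genes with a value on every array, 1.2% had all cKO mice below all WT mice.

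The coreceptors gave no such pattern. Cd4 had a pair of probes that disagreed. The one used for the gene, A_55_P2013655, gave signals of 2570.0, 1760.0 and 1621 in WT mice 1, 2 and 3, 1913, 2667 and 1385 in cKO mice 2, 5 and 6, 3527, 2094 and 2661 in WT mice 4, 5 and 6, and 1818, 3896 and 3145 in cKO mice 1, 3 and 4. These are group levels of 2.02 ± 0.39 in WT and 2.21 ± 0.58 in cKO of Exp 1, and 2.42 ± 0.27 in WT and 2.46 ± 0.64 in cKO of Exp 2 (SD, n = 3 each), with all groups overlapping. The other, A_52_P383089, is spotted 10 times on each array. Its signals were 1065, 255 and 1374 in WT mice 1, 2 and 3, 813, 299.9 and 925 in cKO mice 2, 5 and 6, 3593, 2379 and 3029 in WT mice 4, 5 and 6, and 3381, 4548 and 4569 in cKO mice 1, 3 and 4. Every mouse of Exp 1 lay below every mouse of Exp 2, by either genotype (levels of -0.64 to 1.33 against 2.41 to 3.34). The share of all probes that do so was not counted. The group levels were 0.58 ± 1.07 in WT and 0.55 ± 0.77 in cKO of Exp 1, and 2.56 ± 0.18 in WT and 3.01 ± 0.37 in cKO of Exp 2 (SD between mice, n = 3 each). The SD between spots on 1 array was 0.05 to 0.16.

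With every kept probe tested on its own (35371 probes), the difference Exp 1 minus Exp 2 for A_52_P383089 was -2.46 in cKO (SE 0.51, limma adjusted p = 0.030) and -1.97 in WT (SE 0.51, adjusted p = 0.061). For A_55_P2013655 it was -0.25 in cKO (adjusted p = 0.73) and -0.41 in WT (adjusted p = 0.59). In that fit 5.27% of probes passed in cKO and 2.72% in WT. Cd4 is therefore reported as uncertain, and why its probes differ was not tested. Cd8a was near background: A_52_P150547 was above it on no array (signals of 3.03 to 12.7), and A_52_P443334 on 1, that of cKO mouse 6 (22.7, with 6 of 9 spots used above background), its other signals running from 5.50 to 13.1.

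**Figure D2:**
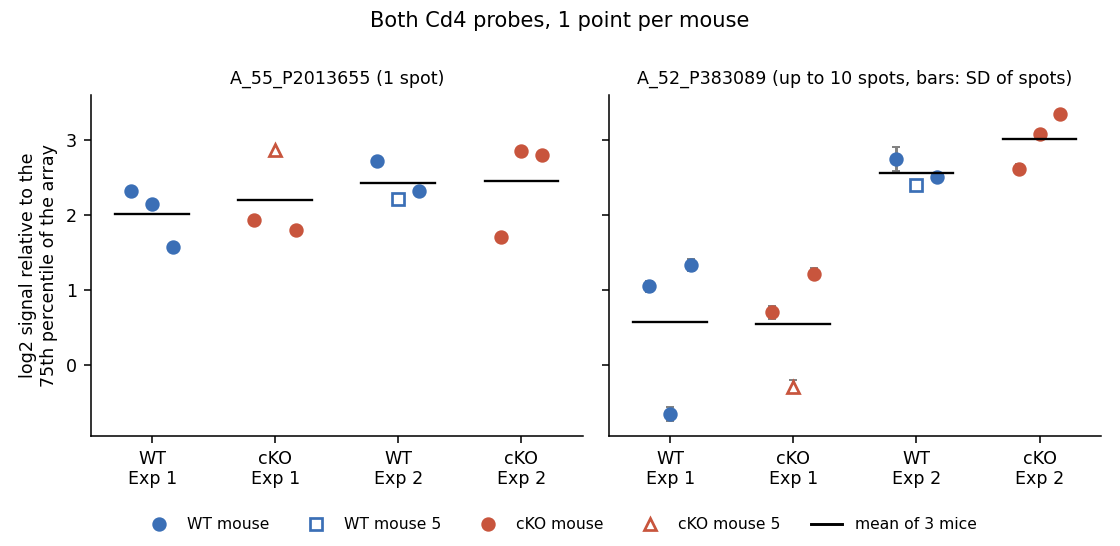
Level of both Cd4 probes in each mouse (log2 signal relative to the array's 75th percentile), by genotype and experiment; bars are group means, grey error bars the SD between spots of 1 array. The left probe overlaps in all groups, while on the right every mouse of Exp 1 is at 1.33 or less and every mouse of Exp 2 at 2.41 or more.

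Cd5 (A_51_P167263) separated the older from the younger cKO mice. Its signals were 533, 385 and 385 in WT mice 1, 2 and 3 and 479.8, 771 and 323 in cKO mice 2, 5 and 6 of Exp 1. In Exp 2 they were 258, 320.4 and 286 in WT mice 4, 5 and 6 and 274, 214 and 209.9 in cKO mice 1, 3 and 4. All cKO mice of Exp 1 were above all cKO mice of Exp 2, and in WT only mouse 3 (-0.50) came down to mouse 5 (-0.49). Thy1 (A_55_P2072035) gave signals of 12701, 9186 and 12756 in WT mice 1, 2 and 3 and 10905, 9936 and 7256 in cKO mice 2, 5 and 6, and of 11082, 9822 and 10741 in WT mice 4, 5 and 6 and 12313, 11134 and 8418 in cKO mice 1, 3 and 4. Its levels were 4.20 to 4.77 over the 12 mice, with group means of 4.57 ± 0.05, 4.47 ± 0.29, 4.39 ± 0.06 and 4.35 ± 0.13 in WT and cKO of Exp 1 and WT and cKO of Exp 2.

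The first comparison asks how cKO skin differed from WT skin, averaged over both experiments. No member passed an adjusted p of 0.05, a threshold that 0.42% of the 16181 genes tested passed. At an unadjusted p under 0.05, 5 of 8 members were lower in cKO and none higher, where 8.75% of all genes were lower and 3.4% higher. These were Cd3g (-0.90, SE 0.22, adjusted p = 0.13), Cd3d (-0.77, SE 0.18, adjusted p = 0.11), Cd3e (-0.55, SE 0.24, adjusted p = 0.40), Zap70 (-0.45, SE 0.11, adjusted p = 0.13) and Lck (-0.43, SE 0.10, adjusted p = 0.0975). Cd5 (0.03), Cd4 (0.11) and Thy1 (-0.07) had intervals that span 0, from -0.47 to 0.54 for Cd5, -0.46 to 0.68 for Cd4 and -0.29 to 0.16 for Thy1 (95%). The median over the members was -0.44, beside -0.04 over all genes tested.

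The averaged result turns on cKO mouse 5. Without it, Cd3g (-1.12, adjusted p = 0.0011) and Cd3d (-0.92, adjusted p = 0.019) passed, as did 0.655% of all genes. Without WT mouse 5, none passed (0.216% of all genes), and Cd3e moved to -0.42 (adjusted p = 0.68). In cKO mouse 5 the 6 keratinocyte genes averaged 7.88, the highest of the 12 mice, and its array had the lowest 75th percentile. The part of either in its CD3 levels was not tested. Of 8 skeletal muscle genes 5 were higher in cKO at an unadjusted p under 0.05, none past the threshold (median 2.70), and their part was not tested either. With slide as a block the differences were -0.79 for Cd3d, -0.58 for Cd3e, -0.85 for Cd3g, -0.46 for Zap70 and -0.47 for Lck, none past the threshold (0.34% of all genes). Within slide 1, where Exp 2 holds only WT mouse 5 and cKO mouse 1, they were -0.997, -1.13, -1.16, -0.42 and -0.56 in the same order. Within slide 2, where cKO mouse 5 is the only cKO mouse of Exp 1, they were -0.57, -0.02, -0.30, -0.55 and -0.42.

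By experiment, the differences of Cd3d, Cd3e, Cd3g and Zap70 were larger in Exp 2 than in Exp 1 and those of the other members were not, and the difference between experiments passed for no member. In Exp 2, 5 of 8 members had every cKO mouse below every WT mouse (Cd3d, Cd3e, Cd3g, Zap70 and Lck), as had 9.88% of all genes. None passed the adjusted threshold (0.0618% of genes did), and 4 had an unadjusted p under 0.05, where 3.36% of genes were lower. The differences were -1.39 for Cd3g (SE 0.31, adjusted p = 0.36), -1.02 for Cd3d (SE 0.25, adjusted p = 0.49), -0.66 for Zap70 (SE 0.15, adjusted p = 0.41), -0.43 for Lck (SE 0.14, adjusted p = 0.80), -0.73 for Cd3e (SE 0.34, adjusted p = 0.98) and -0.34 for Cd5 (SE 0.32, adjusted p = 0.98). Without WT mouse 5 they were -1.37 for Cd3g, -0.88 for Cd3d, -0.61 for Zap70, -0.37 for Lck, -0.47 for Cd3e and -0.18 for Cd5, with no member past the threshold (0.0124% of genes). Without cKO mouse 5, which is not in Exp 2 but shares the estimate of spread, Cd3g passed (adjusted p = 0.0039), as did 0.13% of genes. The 7 Langerhans cell genes were also all lower in cKO of Exp 2, 4 of them at an unadjusted p under 0.05 (3.36% of all genes) and none past the threshold, and their mean level was 2.79 to 2.98 in cKO against 3.11 to 3.34 in WT. Their part in the members' levels was not tested. With slide as a block the values for Exp 2 were -1.29 for Cd3g, -1.06 for Cd3d, -0.68 for Zap70, -0.51 for Lck and -0.79 for Cd3e. Within slide 1 they were -1.35, -1.24, -0.64, -0.74 and -1.54 in that order, each the value of cKO mouse 1 minus that of WT mouse 5. Within slide 2, where cKO mouse 4 is set against WT mice 4 and 6, they were -1.33, -1.06, -0.80, -0.29 and -0.37.

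In Exp 1 the same differences were -0.41 for Cd3g, -0.53 for Cd3d, -0.24 for Zap70, -0.44 for Lck, -0.37 for Cd3e and 0.41 for Cd5. None passed (0.117% of genes did), and Lck had the only unadjusted p under 0.05 (0.0090, where 7.04% of genes were lower). Lck was also the only member whose groups did not overlap in Exp 1 (7.2% of genes), and so the only one with cKO below WT within both experiments (2.59% of genes). The interaction was 0.98 for Cd3g (SE 0.43, unadjusted p = 0.047, where 2.18% of genes were higher, adjusted p = 1.00), 0.75 for Cd5, 0.49 for Cd3d and 0.41 for Zap70, and no member passed (0.00618% of genes). Lck in Exp 1 stood at -0.44 when slides were blocked, at -0.38 on slide 1 alone and at -0.55 on slide 2 alone. Within slide 2, Cd3g and Cd3e were higher in the lone cKO mouse than in the lone WT mouse of Exp 1 (0.74 and 0.34). Within slide 1 the same differences were -0.98 and -0.73.

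**Figure D3:**
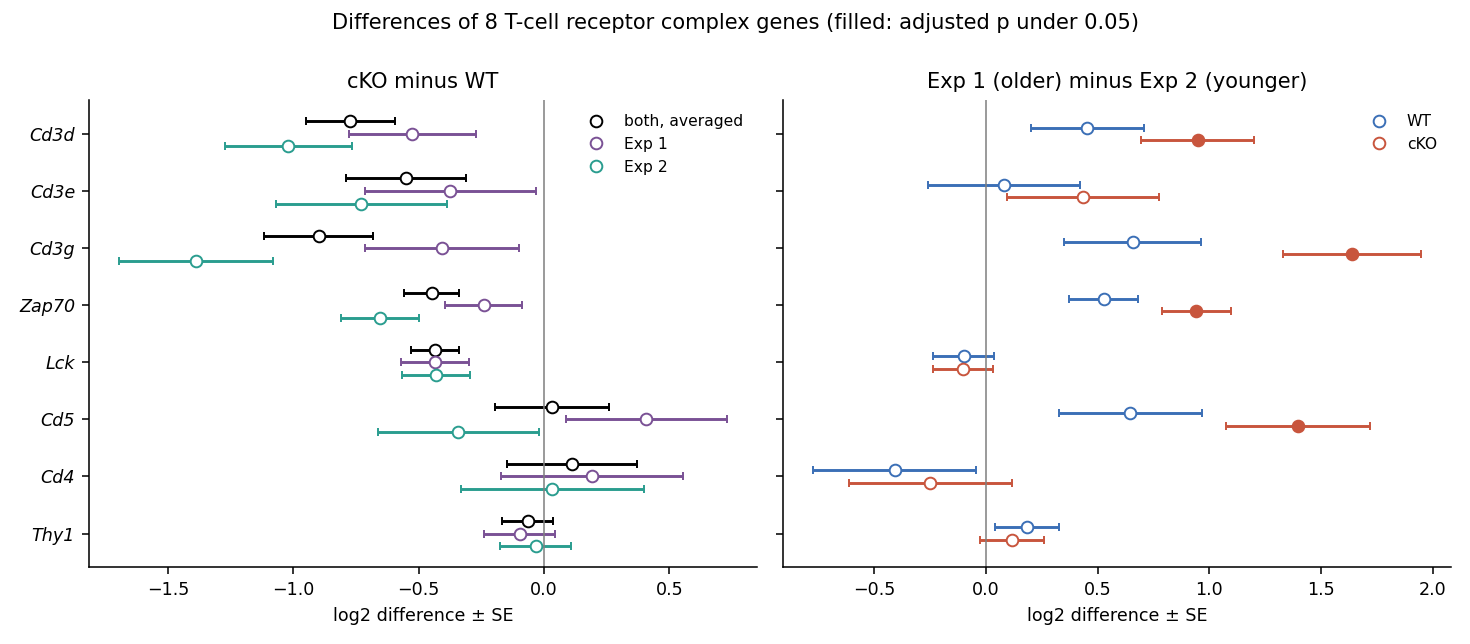
Differences of the 8 tested genes on the log2 scale with their SE, cKO minus WT on the left (averaged over experiments, in Exp 1 and in Exp 2) and Exp 1 minus Exp 2 on the right (in WT and in cKO); filled points passed an adjusted p of 0.05. None passed on the left, and Cd3d, Cd3g, Zap70 and Cd5 passed in cKO on the right.

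The last comparison sets the older mice of Exp 1 against the younger mice of Exp 2 within each genotype. In cKO, 4 of 8 members were higher in Exp 1 and none lower, where 9.98% of all genes passed in either direction and 5.38% were higher. Cd3g rose by 1.64 (SE 0.31, 3.11-fold, adjusted p = 0.018), Cd5 by 1.396 (SE 0.32, 2.63-fold, adjusted p = 0.029), Cd3d by 0.95 (SE 0.25, 1.93-fold, adjusted p = 0.043) and Zap70 by 0.94 (SE 0.15, 1.92-fold, adjusted p = 0.015). These are also the 4 members whose groups did not overlap (17.4% of all genes were higher without overlap). The call for Zap70 is that of its brighter probe. With every kept probe tested on its own (5.27% of probes passed), the dimmer Zap70 probe rose by 0.69 (SE 0.29, limma adjusted p = 0.18). It did not pass, and its groups overlapped. In that fit the brighter Zap70 probe passed (adjusted p = 0.020) and Cd3d did not (adjusted p = 0.061). Cd3e (0.44, adjusted p = 0.44), Thy1 (0.12), Lck (-0.10) and Cd4 (-0.25) did not pass. The median over the members was 0.69, beside 0.03 over all genes.

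In WT, no member passed (0.84% of genes did). The differences were 0.53 for Zap70 (SE 0.15, adjusted p = 0.11), 0.66 for Cd3g (SE 0.31, adjusted p = 0.29), 0.65 for Cd5 (SE 0.32, adjusted p = 0.32) and 0.45 for Cd3d (SE 0.25, adjusted p = 0.37), and Cd3d, Cd3g, Zap70 and Thy1 were higher without overlap, where 14.5% of genes were. Zap70 had the only unadjusted p under 0.05 (0.0062, where 8.93% of genes were higher). Without cKO mouse 5, Cd3g passed (adjusted p = 0.035), as did 3.69% of genes. Without WT mouse 5 the same differences were 0.57, 0.67, 0.81 and 0.59, and none passed (2.56% of genes). With slide as a block they were 0.55, 0.74, 0.74 and 0.50. Within slide 1, where WT mouse 5 alone stands for Exp 2, they were 0.32, 0.75, 0.21 and 0.10. Within slide 2, where WT mouse 1 alone stands for Exp 1, they were 0.82, 0.43, 1.03 and 0.74. Whether the experiments differed more in cKO than in WT is the interaction given above, which no member passed.

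The calls in cKO rest on few arrays. With slide as a block none of the 4 passed, at 1.62 for Cd3g (adjusted p = 0.068), 1.35 for Cd5 (0.088), 1.03 for Cd3d (0.10) and 1.00 for Zap70 (0.055), while 0.902% of all genes passed. Within slide 1 the differences were 1.11, 0.84, 0.59 and 0.75 with none past the threshold, and within slide 2, where 1 cKO mouse stands for each experiment, they were 2.50, 2.18, 1.72 and 1.30, given as values only since the spread there comes from WT mice 4 and 6 alone. Calls over all genes also fell when a cKO mouse was left out. With every mouse, 1615 of 16181 genes passed. Without cKO mouse 4 none of the 4 passed, where 196 of all genes did. Without cKO mouse 3 only Zap70 did (157 of all genes), and without cKO mouse 1 Cd3g and Zap70 did (591 of all genes). Without cKO mouse 5 all but Cd3d (0.65, adjusted p = 0.089) did, where 3.85% of genes passed. Cd5 then stood at 0.98 and Cd3g at 1.19.

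Markers of other cells also differed between the experiments. Over all genes 5.38% were called higher in cKO of Exp 1 and 9.98% in either direction. Of 6 keratinocyte genes 4 were called higher there, their summed signal being 984 to 2075 times the array's 75th percentile against 640 to 803.8 in cKO of Exp 2. Of 9 macrophage genes 7 were called lower (29.0 to 33.3 against 50.8 to 64.7), and of 8 skeletal muscle genes 6 (1.74 to 32.7 against 451 to 871). Among 8 genes shared by all leukocytes, Ptprc among them, none was called and their summed signal overlapped (20.8 to 30.5 against 23.1 to 26.2). Of these 8 genes 6 were lower in cKO of Exp 1 and 2 higher (median -0.33, beside 0.03 over all genes). In cKO minus WT, averaged over experiments, 7 were lower and 1 higher (median -0.15, beside -0.04 over all genes). In WT mouse 5, whose muscle genes were within the range of Exp 1, the mean level of the 3 CD3 chains (-0.30) lay between the other WT mice of Exp 2 (-0.67 and -0.75) and those of Exp 1 (-0.17 to -0.19). The single chains of that mouse did not agree. Cd3d (-1.06) lay between, while Cd3e (1.29) was above every other WT mouse (at most 0.98). Cd3g (-1.12) was close to the other WT mice of Exp 2 (-1.19 and -1.16). The part of these tissues in the CD3 levels was not tested.

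**Figure D4:**
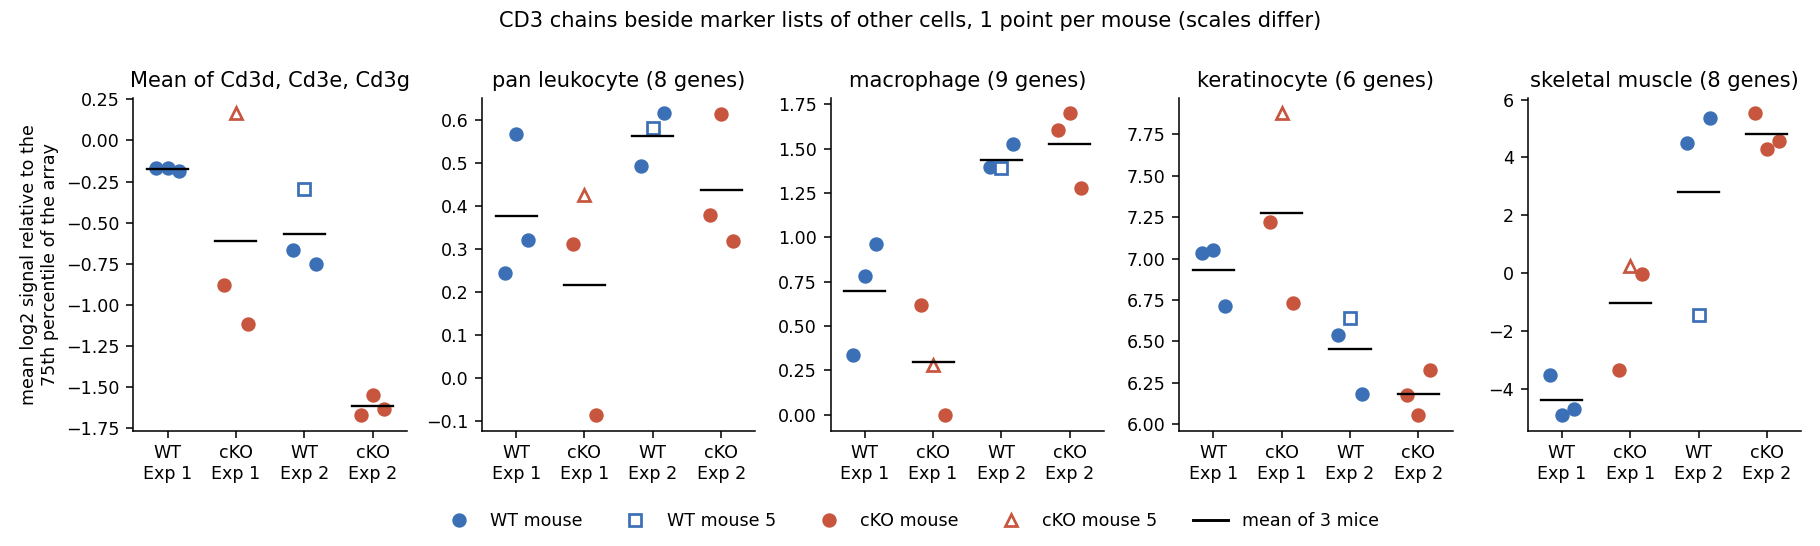
Mean level of Cd3d, Cd3e and Cd3g in each mouse beside the mean level of 4 marker lists (log2 signal relative to the array's 75th percentile, vertical ranges differing between panels); bars are group means. The CD3 mean is lowest in cKO of Exp 2 (-1.67 to -1.55), where macrophage and muscle genes are high and keratinocyte genes low. Pan leukocyte means of cKO of Exp 2 (0.32 to 0.61) overlap those of every other group, while WT of Exp 2 (0.49 to 0.62) lies above cKO of Exp 1 (-0.09 to 0.43).

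Of 24 other genes of T-cell receptor signalling, a list chosen with earlier results of these data known, 20 were tested. None passed in the averaged genotype contrast (median -0.10), and 4 had an unadjusted p under 0.05, all lower in cKO, where 8.75% of all genes were. Among them were Trat1 (-1.20, adjusted p = 0.066), which stabilises the receptor at the surface, and Ptpn22 (-0.39, adjusted p = 0.31), a phosphatase that acts on Lck. Trat1 was above background on 10 of the 12 arrays, so its difference rests partly on values near background. Between experiments in cKO, 2 of the 20 rose in Exp 1 and none fell, where 5.38% of all genes rose: the adaptor gene Lat (1.13, adjusted p = 0.022) and Rasgrp1 (1.18, adjusted p = 0.031), an activator of Ras. The median of the list was 0.38.

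Of 18 surface and costimulation genes 12 were tested. In the averaged genotype contrast 7 of the 12 were higher in cKO and 5 lower (median 0.04). At an unadjusted p under 0.05, 1 was higher and 1 lower (3.4% and 8.75% of all genes). Between experiments, 2 rose in cKO of Exp 1 (5.38% of all genes), Cd96 (1.01, adjusted p = 0.035) and Tnfrsf4 (1.00, adjusted p = 0.011), the gene of OX40. Of 15 T-cell transcription factors and cytokine receptors, all tested, 7 were higher and 8 lower in cKO in the averaged contrast (median -0.0008). Between experiments 3 rose in cKO of Exp 1 against the same share of 5.38%: Bcl11b (1.16, adjusted p = 0.027), a regulator of T-cell identity, Il2rb (0.96, adjusted p = 0.031) and Il7r (0.97, adjusted p = 0.046), receptor chains for interleukins. In that contrast 4 of 6 keratinocyte genes also rose, and which cells gave the Bcl11b signal was not tested. Of 7 tested genes of epidermal gamma delta and cytotoxic T cells none passed in any contrast. Averaged over experiments, 3 were higher and 4 lower in cKO, 1 of them at an unadjusted p under 0.05 (8.75% of all genes). Xcl1, a chemokine gene, had all cKO mice below all WT mice (-1.51, adjusted p = 0.083), as had 1.2% of genes. Between experiments in cKO, 2 of the 7 were higher and 5 lower in Exp 1 (median -0.16).

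Cells other than T cells share some of these genes. Of 7 natural killer cell genes 4 were tested, and 3 of them were lower in cKO at an unadjusted p under 0.05 (8.75% of all genes), with a list median of -0.66 beside the members' -0.44. None passed the adjusted threshold. They were Klra8 (-1.44, adjusted p = 0.081), Klrd1 (-0.93, adjusted p = 0.090), which T cells also express, and Tyrobp (-0.38, adjusted p = 0.38), and the part of these cells in the members' levels was not tested. Ncr1 and Klrb1c were too dim to be tested. Between experiments Klrd1 rose in cKO of Exp 1 (1.34, adjusted p = 0.024), and Klre1 fell there (-2.52, adjusted p = 0.028). Of the B cell markers Ms4a1, Pax5 and Blk were too dim to be tested, as was Glycam1 of lymph node vessels. Of the tested genes, 1 of 5 in the B cell list and 2 of 5 in the lymph node list fell in cKO of Exp 1. There 9.98% of all genes passed in either direction, and the part of these cells in the members' levels was not tested. The summed signal of the 5 tested B cell genes was 0.56 to 1.89 times the array's 75th percentile over all mice.

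Across the 12 mice, which share genotype and experiment as sources of variation, the mean of Cd3d, Cd3e and Cd3g correlated with Zap70 (r = 0.89), Cd5 (0.75) and Thy1 (0.73), and little with Lck (0.32) or Cd4 (-0.02). Pairs of CD3 chains had r of 0.74 (Cd3e and Cd3g), 0.86 (Cd3d and Cd3e) and 0.92 (Cd3d and Cd3g). Taken as deviations from group means, the r with the CD3 mean was 0.56 for Zap70, 0.89 for Cd5, 0.85 for Thy1, 0.55 for Cd4 and -0.37 for Lck. These values rest largely on cKO of Exp 1, where the CD3 mean ran from -1.11 to 0.17. In WT of Exp 1 it ran from -0.19 to -0.17, in WT of Exp 2 from -0.75 to -0.30 and in cKO of Exp 2 from -1.67 to -1.55. The 0.17 is that of cKO mouse 5, which was also highest for Cd5, Thy1 and the Cd4 probe used, and lowest for Lck. Of the 16157 genes, the named genes outside the set most like the CD3 mean were Pheta1 (r = 0.97), Drc1 (0.96), Klrd1 (0.96), Rab31 (0.95), Il2rb (0.95), Epcam (0.94), Crabp1, Rflna, Syt13 and Itgb1 (each 0.93). Without WT mouse 5, the 10 included Pheta1, Drc1, Klrd1, Rflna, Rab31 and Il2rb again, with Pcdhb16, Cxcr6 and Edaradd among the others (0.93 to 0.98 in all). These are descriptions over 12 or 11 arrays.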

How the data were processed

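RNA of 12 mice was measured on 12 one-colour arrays. Per the file headers, the deposited scanner files come from Feature Extraction 11.5.1.1 and give each spot an intensity, gProcessedSignal, with background subtracted and no scaling between arrays, and other columns of flags. The deposited value table holds log2 values whose normalization by the authors the sources used here do not state. Limma is named in the submitters' processing notes.

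Spots of a probe were averaged on the log2 scale without outlier spots, and each array's 75th percentile was subtracted. A probe was kept when above background on at least 3 arrays (at least 50% of its spots), and a gene took its brightest kept probe. The RefSeq table for GRCm38.p6 named 27509 probes and left 28172 unnamed. The 16181 genes were fitted with limma 3.58.1 in R 4.3.3 with a mean for each of 4 groups (residual degrees of freedom 8, prior 2.3), with 6 contrasts and Benjamini-Hochberg adjustment over all genes. All p-values are two-sided. The number of arrays limits the precision.

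All 10 members are named, then list genes past the threshold in any contrast or among the 4 with the smallest p in the averaged contrast, and the 10 genes most like the CD3 mean; some genes that this rule names are not reported here. The members and lists were chosen with earlier results of these data known. Mice with the same number did not deviate together (r of -0.26 to 0.07). Alternatives covered outlier spots, scaling, background correction, the filter, the choice of probe, the value table, the slide, an array-name tag, a replicate block and leaving out each mouse.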

Additional observations from a re-analysis of the deposited data

Results flagged for a closer look

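The level of Cd3e in cKO mouse 5 (1.32) stood apart from the other 5 cKO mice, its gap to the next exceeding the critical share of the range for 6 samples (0.625). This was 1 of 20 groups of 6 mice examined over the member probes, and chance alone gives about 1 in 20. The same mouse also had the highest levels of Cd3g, Cd5, Cd4 (probe A_55_P2013655) and Thy1 among the 12 mice and the lowest level of Lck.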

How the results depend on the processing

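In the averaged genotype contrast, the count of members past the threshold was 0 in all but 2 of 28 alternatives, and 0 to 2 when each mouse was left out. It was 2 without cKO mouse 5, with or without WT mouse 5. Cd3d, Cd3e, Cd3g, Zap70 and Lck stayed negative in all 28 alternatives, with adjusted p of 0.019 to 0.45, 0.10 to 0.97, 0.0011 to 0.49, 0.098 to 0.60 and 0.078 to 0.54. In Exp 1 the count was 0 throughout. In Exp 2 it was 1 (Cd3g) with only the arrays of that experiment fitted or without both mice numbered 5, and 0 to 1 over the mice. For the interaction it was 1 (Cd3g, 2.07) within slide 2, where the only spread is that of WT mice 4 and 6, and for Exp 1 minus Exp 2 in WT 1 (Cd3g, 0.67) without both mice numbered 5, and 0 to 1 over the mice. For Exp 1 minus Exp 2 in cKO the count of 4 became 0 with the value table, slide as a block, the array-name tag or the replicate block. It was 1 with only the cKO arrays, and 0 to 4 over the mice. Calls over all 16181 genes fell with it, from 1615 to 62 with the value table and 146 with slide as a block. They were 92 with the array-name tag, 0 with the replicate block and 470 with only the cKO arrays. The column of cKO mouse 1 in the value table matched its own array less well (r = 0.946) than the others did (at least 0.978). It matched the array of WT mouse 6 as closely (0.947), so which mouse it holds is uncertain in every value-table result. The cause was not tested. Without that column the count of members was 3, and 1058 of all genes passed.

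Signs turned for small differences. Averaged, Cd5 was -0.052 with array median scaling, -0.0019 in the value table without cKO mouse 1, -0.21 within slide 1 and -0.10 without both mice numbered 5, with a range of -0.18 to 0.17 over the mice. Cd4 was -0.25 within slide 1 and -0.10 without both mice, and -0.054 to 0.30 over the mice. Thy1 was 0.036 in the value table, 0.0011 within slide 2 and -0.14 to 0.0034 over the mice. In Exp 1, Cd3e (0.34) and Cd3g (0.74) turned within slide 2, and Cd5 (-0.010) without both mice, its range over the mice being -0.010 to 0.68. With the replicate block, Cd5 in Exp 2 was 0.0080. The numbers do not pair the mice, and no other sign turned under that paired fit. In the value table the interaction was -0.0071 for Cd3d and -0.029 for Zap70. Between experiments in cKO, Thy1 was -0.060 in the value table, -0.15 within slide 1, -0.029 without both mice and -0.029 to 0.26 over the mice. Cd4 turned to 0.063 when slides were blocked, and to 0.16 and 0.070 inside slides 1 and 2, and Lck 0.18 within slide 1. With the mean of kept probes Cd4 was -1.35 (adjusted p = 0.024). The cause was not tested.

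With array median scaling the median of all genes moved to -0.12 averaged, -0.21 in Exp 2, 0.14 for the interaction and -0.15 for the experiments in WT. Fits within a slide have 1 or 2 mice per group, and signals near background give Cd247 and Cd8a no level.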

Other observations

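Lymphocyte homing receptor genes were tested in 8 of 9 cases. Between experiments in cKO, 2 of the 8 were called higher in Exp 1 and none lower, where 5.38% of all genes were called higher. These were Cxcr6 (0.80, adjusted p = 0.029) and Ccr4 (1.18, adjusted p = 0.034), receptors of T cells found in skin. At an unadjusted p under 0.05, 3 of the 8 were higher and 2 lower. Of 7 Langerhans cell genes 2 were called higher against the same share. Cd207, the gene of langerin, rose by 0.92 (adjusted p = 0.041) and Epcam by 0.74 (adjusted p = 0.033). Of the 5 tested genes of the lymph node list 2 fell, Cxcl13 (-2.88, adjusted p = 0.021) and Fcna (-2.49, adjusted p = 0.020). The complement receptor gene Cr2 (-2.12, adjusted p = 0.017) also fell, as did Pdgfra (-0.86, adjusted p = 0.029) of the 6 fibroblast genes. Of all genes 9.98% passed there in either direction. No gene of the mast cell or neutrophil lists passed in any of the 6 contrasts. In the averaged genotype contrast no gene of any list passed. Lower in cKO at an unadjusted p under 0.05, as were 8.75% of all genes, was among others Lag3 (-1.04, adjusted p = 0.063), an inhibitory receptor of T cells. Lag3 was above background on 8 of the 12 arrays, so its difference rests partly on values near background. Klra8 (-1.44, adjusted p = 0.081), a receptor of natural killer cells, S100a8 (-0.59, adjusted p = 0.11) and Il2rb (-0.66, adjusted p = 0.13) were also lower. Tnfrsf4 was higher (0.29, adjusted p = 0.32), where 3.4% of all genes were.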
